A study of Homo sapiens with 12 samples.

Results

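Interferon response genes are the genes that cells switch on after type I or type II interferon, and 48 of them were followed here in the human cell line SET-2, which grew out of an acute myeloid leukemia. The 48 genes were chosen by name, and their gene identifiers were looked up among the 63677 genes listed in the count data. All 48 were found, and DDX58 is also known as RIGI. A total of 12 libraries in 4 groups of 3 were used: cells with an inserted arginine in LSD1 (insR, Leu659_Asn660insArg) under GSK-LSD1 or DMSO, and cells with wild-type LSD1 (WT) under GSK-LSD1 or DMSO. LSD1, the product of KDM1A, removes methyl groups from lysine 4 of histone H3, and GSK-LSD1 binds it covalently. The drug was given at 250 nM and DMSO at 0.1% by volume, each for 48 h, and the labels describe the insR cells as resistant to the drug. Whether the insR cells are 1 clone or a pool, and whether replicates are separate cultures, is not stated in the labels, so p-values cover only the spread between these libraries, which may be technical.

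In the type I pathway, interferon binds the receptor chains IFNAR1 and IFNAR2, the kinases JAK1 and TYK2 are activated, and a complex that contains STAT2 and IRF9 binds promoter sites called interferon-stimulated response elements. Sensors such as DDX58 and IFIH1 recognise double-stranded RNA and start interferon production, and most of the sensors are interferon-induced themselves. Loss of LSD1 has been reported in other cells to raise double-stranded RNA from repeat elements, to lower parts of the RNA-induced silencing complex and to start interferon signalling, so genes of those steps were read as well.

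Reads in genes ranged from 4837096 to 10141155 per library, and 12864 genes passed the count filter and were tested. Levels are given as CPM, the usual count relative to the library's total, here scaled with TMM factors, and 3 counts stand for 0.296 to 0.62 CPM. A gene was called where the Benjamini-Hochberg adjusted p of edgeR's quasi-likelihood test over all tested genes was below 0.05. KDM1A itself was at 106 ± 4.56 CPM in insR GSK-LSD1, 109 ± 2.18 in insR DMSO, 217 ± 3.01 in WT GSK-LSD1 and 265 ± 26.5 in WT DMSO (SD, n = 3). Its level was lower in insR than in WT cells in DMSO (log2 fold change -1.28, edgeR adjusted p = 7.64e-12) and under GSK-LSD1 (-1.02, edgeR adjusted p = 1.78e-10). Under the drug KDM1A was called lower in WT cells (-0.29, edgeR adjusted p = 0.00451) and was not called in insR cells (-0.03, edgeR adjusted p = 0.983). Counts per gene do not show the insertion. The 8 haematopoietic and myeloid leukemia genes used to check the cell type all had reads in every group, with a summed level of 2525 to 2609 CPM in insR GSK-LSD1, 2467 to 2619 in insR DMSO, 3307 to 3320 in WT GSK-LSD1 and 2219 to 2287 in WT DMSO.

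All 21 interferon ligand genes looked for, the IFNA family, IFNB1, IFNE, IFNK, IFNW1, IFNG and IFNL1 to IFNL3, had 0 counts in all 12 libraries. At this depth a count of 0 allows up to 0.62 CPM of uniquely placed reads in the shallowest library. Reads placed at several sites were not counted. Their alignments made up 57.9% to 62.6% of all entries of the counting step. Such a read may be entered there more than once, so this is not a share of reads. For genes with similar copies, such as the IFNA family and IFNL2 and IFNL3, a count of 0 may therefore miss reads and sets no such limit. Of the 48 members, 43 passed the count filter. The other 5 were the antiviral genes OAS2, OASL, IFIT1, MX1 and IFI44L. Summed over 3 libraries, MX1, an interferon-induced GTPase, had 1 count in insR GSK-LSD1, 2 in insR DMSO, 20 in WT GSK-LSD1 and 5 in WT DMSO. IFIT1, which binds foreign RNA ends, had 12, 16, 20 and 27 counts in insR GSK-LSD1, insR DMSO, WT GSK-LSD1 and WT DMSO. OAS2 had 3, 1, 8 and 1 counts, OASL 5, 10, 3 and 3, and IFI44L 3, 3, 11 and 11, in the same order of groups. These 5 genes were too low for a test.

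Promoters were picked to set the sites that interferon is known to act through beside the measured changes. The pick took members with a called log2 change of at least 1 and at least 5 CPM in the higher group. Of these with a promoter window, the ones of lowest p in the WT response and in insR against WT in DMSO were kept. RefSeq windows on GRCh38.p14, from 250 bases before to 50 bases after a start, were found for 38 of the 48 members, and MX2, IRF7, IFIT2, IRF2, USP18, OASL, OAS2, IFITM2, GBP2 and TRIM22 had none. Letters like an interferon-stimulated response element, TTTC, any 2 bases and then TTTC again, on either strand, were in 25 of these 38 members (65.8%) and in 3.57% of the 35116 windows of all genes (4.38% of the 27305 genes with a window). Letters like a gamma-activated site, TTCNNNGAA on either strand, were in 11 of the 38 (28.9%) and in 7.66% of all windows (9.38% of genes). Only the picked windows that held the response element letters are printed. The windows below are written 5′ to 3′ along the gene's strand, with the response element letters in capitals.
PARP9, chr3:122564251-122564550, minus strand: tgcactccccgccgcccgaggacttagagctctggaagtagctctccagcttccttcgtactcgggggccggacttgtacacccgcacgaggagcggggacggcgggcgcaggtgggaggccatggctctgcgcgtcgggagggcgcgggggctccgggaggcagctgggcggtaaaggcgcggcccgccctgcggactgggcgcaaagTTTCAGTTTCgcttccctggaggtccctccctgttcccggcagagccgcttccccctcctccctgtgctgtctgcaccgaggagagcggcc
RSAD2, chr2:6877527-6877826, plus strand: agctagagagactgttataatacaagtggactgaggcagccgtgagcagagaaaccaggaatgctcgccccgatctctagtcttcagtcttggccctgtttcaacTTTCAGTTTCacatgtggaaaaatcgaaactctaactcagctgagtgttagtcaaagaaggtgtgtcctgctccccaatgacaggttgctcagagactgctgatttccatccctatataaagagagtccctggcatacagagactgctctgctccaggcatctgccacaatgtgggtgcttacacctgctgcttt
GBP1, chr1:89065159-89065458, minus strand: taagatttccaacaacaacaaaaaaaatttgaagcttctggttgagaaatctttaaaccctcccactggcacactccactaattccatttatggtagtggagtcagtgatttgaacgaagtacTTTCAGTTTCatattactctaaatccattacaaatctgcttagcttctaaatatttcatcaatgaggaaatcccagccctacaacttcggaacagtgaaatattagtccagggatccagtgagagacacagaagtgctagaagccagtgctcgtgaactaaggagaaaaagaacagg
ISG20, chr15:88638766-88639065, plus strand: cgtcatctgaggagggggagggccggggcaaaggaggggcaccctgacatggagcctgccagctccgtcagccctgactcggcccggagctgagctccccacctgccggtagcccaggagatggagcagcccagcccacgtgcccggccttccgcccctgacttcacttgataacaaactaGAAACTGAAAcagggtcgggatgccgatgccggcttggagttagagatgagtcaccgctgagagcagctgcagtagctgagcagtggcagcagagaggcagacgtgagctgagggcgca
The letters began 41 bases before the start in PARP9, 145 in RSAD2, 127 in GBP1 and 69 in ISG20, where they stand on the other strand. The same 10 bases of PARP9, at chr3:122564332-122564341, also lie in the window of DTX3L, its neighbour on the opposite strand, since both windows share 137 bases. RSAD2 and PARP9 each have a second window, at chr2:6865635-6865934 and chr3:122564735-122565034, and neither of these held the letters. IFI16 was picked as well, but no window of it held the response element letters, so none is printed. The search allowed exactly 2 bases between the repeats, so GAAACGAAA, with a single base between them, was not counted. That form is in the RSAD2 window at chr2:6865635-6865934 and in the IFI16 window at chr1:159009657-159009956. A window without the letters is therefore not shown to lack a site. A match of letters is a description and was not measured as binding.

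The first comparison asked which interferon response genes changed when WT cells received GSK-LSD1. Members went both ways: 16 of the 43 tested rose and 6 fell, with a median log2 fold change of 0.26 over the 43, against 0.01 over all genes tested. Over all genes 45.2% were called, 22.7% higher and 22.5% lower, so the drug moved much of the transcriptome, and the members' 22 calls are read against that. In bulk RNA a lower level cannot be told apart between fewer cells of a type and less RNA per cell.

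All 3 tested GTPases rose in WT cells, while MX1 was too low to test. GBP2, a guanylate-binding protein that acts on pathogen vacuoles, was at 58.6, 44.4 and 41.3 CPM in WT GSK-LSD1, against 11.6, 17 and 19.1 CPM in WT DMSO (log2 fold change 1.58, SE 0.16, edgeR adjusted p = 2.61e-08). Its relative GBP1 was at 32.9, 29 and 32 CPM in WT GSK-LSD1, against 13.3, 17.3 and 16.1 CPM in WT DMSO (log2 fold change 1.002, SE 0.15, edgeR adjusted p = 6.24e-06). In both genes every treated WT library lay above every DMSO library. How many of all tested genes separate this way was not counted, here or for the members below. Such separation is therefore given as description and adds no support to the test. MX2, a GTPase of the nuclear envelope that restricts lentiviruses, was at 9.45, 7.3 and 7.84 CPM in WT GSK-LSD1, against 2.63, 1.88 and 1.96 CPM in WT DMSO (log2 fold change 1.92, SE 0.33, edgeR adjusted p = 3.59e-05). The counts behind these MX2 levels were 165 in WT GSK-LSD1 and 40 in WT DMSO.

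RSAD2 (viperin), a radical enzyme that makes a chain-terminating nucleotide against viral polymerases, had the lowest p of the members in WT cells. Its level was 26.1, 25 and 27.1 CPM in WT GSK-LSD1, against 7.2, 8.44 and 6.61 CPM in WT DMSO (log2 fold change 1.80, SE 0.14, edgeR adjusted p = 2.52e-10). CMPK2, a mitochondrial nucleotide kinase that lies head to head with RSAD2 on chromosome 2, was at 74.3, 66.6 and 95.1 CPM in WT GSK-LSD1, against 52.1, 48.1 and 56.6 CPM in WT DMSO (log2 fold change 0.60, SE 0.11, edgeR adjusted p = 8.2e-05). For both genes of this pair the treated and untreated WT libraries did not overlap.

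Among sensors, DDX58, which detects double-stranded RNA with a triphosphate end, was at 11.3, 12.7 and 11 CPM in WT GSK-LSD1, against 7.55, 6.3 and 4.82 CPM in WT DMSO (log2 fold change 0.90, SE 0.22, edgeR adjusted p = 0.00185). IFI16, a nuclear DNA sensor, was at 457, 510 and 474 CPM in WT GSK-LSD1, against 388, 407 and 353 CPM in WT DMSO (log2 fold change 0.33, SE 0.08, edgeR adjusted p = 0.00185). ISG15, the ubiquitin-like modifier, was at 79.4, 71.4 and 76.9 CPM in WT GSK-LSD1, against 44.1, 45.8 and 57.5 CPM in WT DMSO (log2 fold change 0.63, SE 0.12, edgeR adjusted p = 0.000103). None of these 3 genes had overlapping libraries. Rises were also called for the transcription factors STAT2 (log2 fold change 0.57), IRF2 (0.52) and IRF7 (0.58), for SAMD9 (0.54), for the tether BST2 (0.38), for PARP14 (0.23), for IFI6 (0.47) and for OAS1 (1.25), the enzyme that activates RNase L.

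The members that fell in WT cells included a neighbouring pair whose products form a complex that acts in DNA repair and interferon signalling. PARP9 was at 25.7, 24.4 and 24 CPM in WT GSK-LSD1, against 66.5, 69.3 and 60.9 CPM in WT DMSO (log2 fold change -1.41, SE 0.13, edgeR adjusted p = 2.74e-09). DTX3L, the ubiquitin ligase partner of PARP9, was at 140, 128 and 112 CPM in WT GSK-LSD1, against 246, 226 and 256 CPM in WT DMSO (log2 fold change -0.94, SE 0.09, edgeR adjusted p = 4.52e-09). Both genes were lower in every treated WT library than in any untreated one. PARP14, which lies near them, was called higher, so the chromosome 3 members did not move together. USP18, the protease that removes ISG15 and dampens receptor signalling, fell (log2 fold change -0.93, edgeR adjusted p = 0.0224), as did IFI27 (-0.59), the exonuclease ISG20 (-0.32) and the kinase EIF2AK2 (-0.31), which blocks translation when bound to double-stranded RNA.

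Members tested and not called in WT cells included the whole measured IFIT family, with log2 fold changes of 0.03 for IFIT2, 0.19 for IFIT3 and 0.26 for IFIT5, and the classic regulators IRF1 (-0.15) and IRF9 (-0.57). ADAR, which edits double-stranded RNA, was at 0.11, and IFIH1 at 0.31. Over all 21 members not called, log2 fold changes ran from -0.71 to 0.63. A p above the threshold does not show that these genes were the same in both groups.

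Some of these calls rested on single libraries or settings. OAS1 was lost in 9 of 16 alternatives (edgeR adjusted p of 0.144, 0.12, 0.224 and 0.0955 without WT DMSO replicates 1 and 3 and WT GSK-LSD1 replicates 1 and 2, range over the alternatives 0.0133 to 0.224). IFI6 was lost in 11 of 16 (0.0985, 0.225, 0.145 and 0.153 without WT DMSO replicates 2 and 3 and WT GSK-LSD1 replicates 1 and 3, range 0.0197 to 0.225), and ISG20 in 10 of 16 (0.102, 0.102, 0.0886 and 0.201 without WT DMSO replicates 1 and 2 and WT GSK-LSD1 replicates 1 and 3, range 0.0207 to 0.201). IRF7 was lost without WT DMSO replicate 3 (edgeR adjusted p = 0.13) and without WT GSK-LSD1 replicates 2 and 3 (0.062 and 0.0802), with a range of 0.0106 to 0.13. USP18 was lost without WT DMSO replicate 2 (0.0618) and WT GSK-LSD1 replicate 2 (0.101), with a range of 0.0147 to 0.101. PARP14 was lost without WT DMSO replicate 1 (0.0847) and with no count filter (0.114), with a lowest value of 0.00426, and IRF2 without WT GSK-LSD1 replicate 3 (0.0721), with a lowest value of 0.00145.

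Markers of several other cell types moved in the same comparison. The summed level of 10 monocyte and macrophage genes was 281 to 308 CPM in WT GSK-LSD1 and 105 to 129 CPM in WT DMSO, and it was 153 to 163 CPM in insR GSK-LSD1 and 128 to 135 CPM in insR DMSO. Of these, VCAN (log2 fold change 4.05), ITGAM (1.80) and LYZ (0.62) were called higher in WT cells, and CD68 (-0.30) was not called. CD14 had 19 counts in WT GSK-LSD1 and 3 in WT DMSO, and S100A8 had 0 everywhere. Of 5 genes of plasmacytoid dendritic cells, which make much interferon, the summed level was 133 to 137 CPM in WT GSK-LSD1 and 88.8 to 102 CPM in WT DMSO, and it was 105 to 114 CPM in insR GSK-LSD1 and 117 to 124 CPM in insR DMSO. The defining genes of that cell type were near or at 0, with 2 counts of CLEC4C and 2 of LILRA4 in WT GSK-LSD1 and 0 counts of IRF8 in every library. Lists of unrelated cell types rose too. T, B and NK cell genes summed to 19.6 to 25.7 CPM in WT GSK-LSD1, against 14.1 to 16.5 CPM in WT DMSO. Epithelial and stromal genes summed to 19.4 to 22.5 CPM in WT GSK-LSD1, against 11.8 to 12.6 CPM in WT DMSO. CD79A, NKG7, COL1A2 and KRT8 were called higher among them. Library measures moved as well. The share of uniquely mapped reads that fell in no annotated feature was 18.4 to 19.5% in WT GSK-LSD1, against 16.3 to 16.7% in WT DMSO, and that of mitochondrial genes among gene reads was 3.97 to 4.54% in WT GSK-LSD1, against 2.93 to 3.55% in WT DMSO, so neither overlapped. The part of these shifts in the interferon response genes was not tested.

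**Figure D1:**
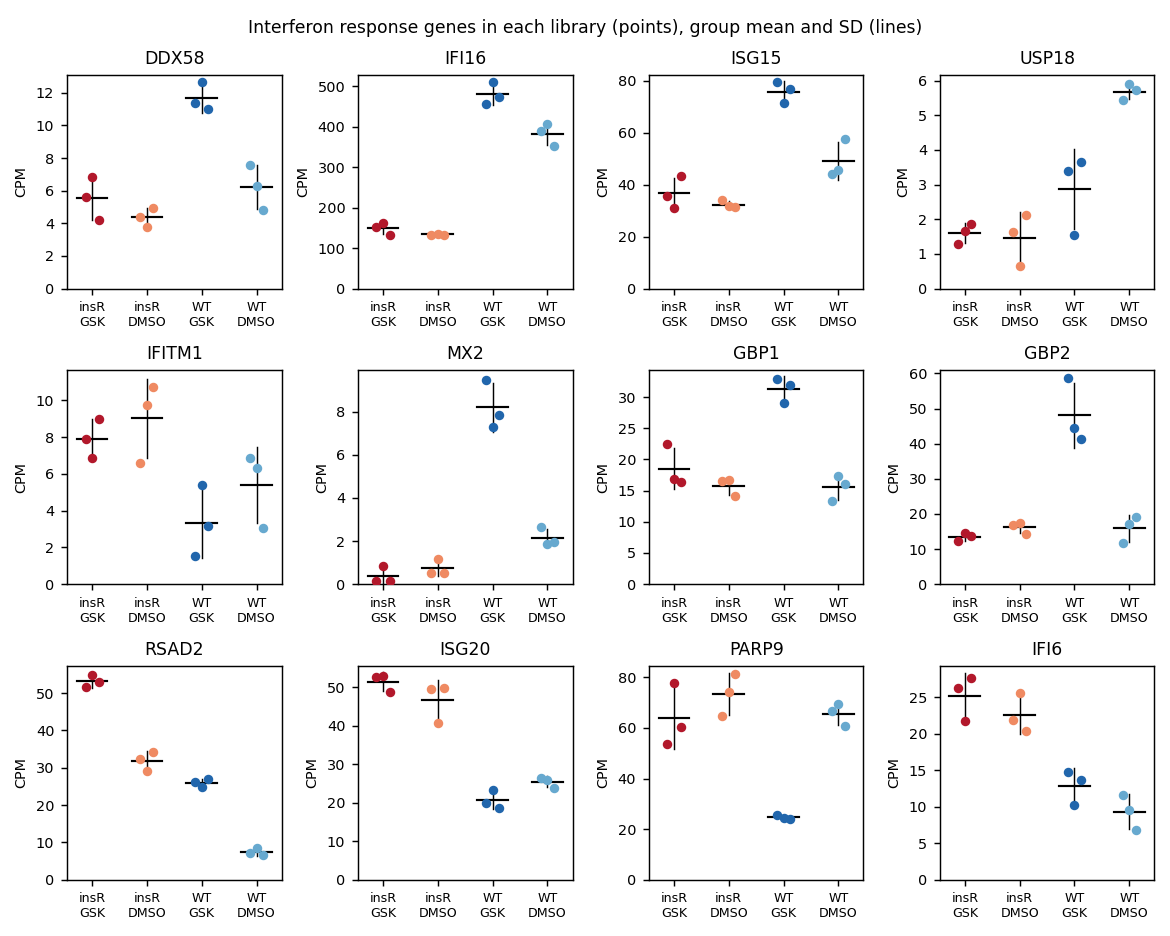
Levels (CPM, linear axis from 0) of the 12 members with a called change of at least 1 on the log2 scale and at least 5 CPM in the higher group, by group (insR GSK-LSD1, insR DMSO, WT GSK-LSD1, WT DMSO). Each point is 1 library, each horizontal line the mean of 3 and each vertical line the SD; GBP2 and MX2 stand high in WT GSK-LSD1, PARP9 stands low there, and RSAD2 is high in all 6 insR libraries.

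The second comparison asked whether the same genes changed in insR cells under the drug. Over all genes 0.505% were called, 0.241% higher and 0.264% lower, and 1 of the 43 members was called. That member was RSAD2, at 51.6, 55 and 53.1 CPM in insR GSK-LSD1, against 32.3, 29 and 34.1 CPM in insR DMSO (log2 fold change 0.74, SE 0.11, edgeR adjusted p = 0.00112). The insR libraries of RSAD2 did not overlap, and the call was kept in all 16 alternatives, with adjusted p-values up to 0.0167. The log2 fold changes of the 43 members ran from -0.98 to 0.74 with a median of -0.02, and 4 members (9.3%) had an unadjusted p below 0.05, against 7.74% of all genes.

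CMPK2, the head-to-head neighbour of RSAD2, was at 135, 125 and 120 CPM in insR GSK-LSD1, against 95.1, 94 and 97.9 CPM in insR DMSO. Its insR libraries did not overlap either, but the gene did not pass the threshold (log2 fold change 0.41, SE 0.10, edgeR adjusted p = 0.0841). Among 39 tested interferon-stimulated genes outside the 48 members, TNFSF10, which encodes the death ligand TRAIL, was the 1 gene called in insR cells (log2 fold change 0.66, edgeR adjusted p = 0.0078). Of the marker genes, ITGAM (0.82) was called higher and IL3RA (-0.79) lower in insR cells under the drug, and their part in the members' changes was not tested.

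The difference between the responses was tested directly as the insR change minus the WT change. It was called for 25.1% of all genes, 13.3% with a higher and 11.8% with a lower response in insR cells, and for 10 of the 43 members, 2 higher and 8 lower. GBP2 had a difference of -1.86 on the log2 scale (SE 0.24, edgeR adjusted p = 4.1e-06), having been at 12.2, 14.5 and 13.6 CPM in insR GSK-LSD1 and at 16.8, 17.5 and 14.4 CPM in insR DMSO. MX2 had a difference of -2.90 (SE 0.76, edgeR adjusted p = 0.00614), with 6 counts over the 3 insR GSK-LSD1 libraries and 15 over the insR DMSO libraries. GBP1 had a difference of -0.77 (SE 0.21, edgeR adjusted p = 0.0102). In the insR response itself the log2 fold changes were 0.23 for GBP1, -0.28 for GBP2 and -0.98 for MX2. None of these 3 was called there by edgeR, DESeq2, limma-voom or limma-trend, and 0 had an unadjusted p below 0.05 with edgeR.

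RSAD2, although called in both genotypes, had a smaller response in insR cells (difference -1.06, SE 0.18, edgeR adjusted p = 0.000134). For CMPK2 the difference was -0.20 with a 95% confidence interval of -0.51 to 0.11, and it did not pass the test. The difference had the opposite sign for the pair on chromosome 3, at 1.21 for PARP9 (SE 0.17, edgeR adjusted p = 1.31e-05) and 0.82 for DTX3L (SE 0.12, edgeR adjusted p = 2.58e-05). PARP9 was at 53.8, 77.6 and 60.5 CPM in insR GSK-LSD1 and at 64.6, 74.1 and 81.4 CPM in insR DMSO, which overlap. STAT2 (-0.59), SAMD9 (-0.50), BST2 (-0.33) and IRF2 (-0.57) were also called. Marker genes differed in the same test, with VCAN (-4.04) and ITGAM (-0.98) called among 4 tested monocyte and macrophage genes, IL3RA (-2.12) and TCF4 (-0.50) among 2 plasmacytoid dendritic cell genes, and 5 of the 8 haematopoietic genes. Their part in the members' differences was not tested.

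The calls of STAT2, SAMD9, BST2 and IRF2 depended on single libraries. STAT2 was lost without WT DMSO replicate 2 (edgeR adjusted p = 0.0569, range over 21 alternatives 0.00171 to 0.0569). SAMD9 was lost without WT DMSO replicate 3 (0.0729), WT GSK-LSD1 replicate 1 (0.103), insR DMSO replicate 2 (0.0675) and insR GSK-LSD1 replicate 3 (0.0743), and at equal depth (0.105), with a lowest value of 0.0116. BST2 was lost in 12 and IRF2 in 13 of 21 alternatives, with ranges of 0.0234 to 0.153 and 0.0204 to 0.183. The BST2 call was lost without any 1 of WT DMSO replicates 2 and 3, WT GSK-LSD1 replicates 1 and 2, insR DMSO replicates 1 and 2 and insR GSK-LSD1 replicates 1 and 2 (0.11, 0.0697, 0.0819, 0.0697, 0.153, 0.0714, 0.0997 and 0.0889). The IRF2 call was lost without any 1 of WT DMSO replicates 1 and 2, WT GSK-LSD1 replicates 2 and 3, insR DMSO replicates 2 and 3 and insR GSK-LSD1 replicates 1 and 3 (0.123, 0.0584, 0.0501, 0.183, 0.122, 0.0786, 0.0878 and 0.134).

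**Figure D2:**
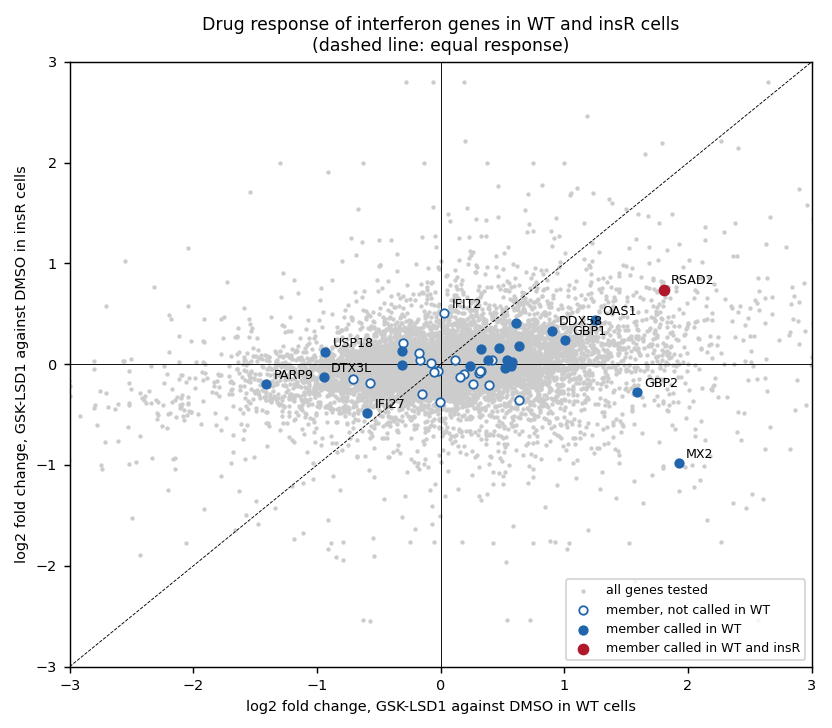
Log2 fold change under GSK-LSD1 in insR cells (vertical axis) against that in WT cells (horizontal axis) with 1 point per gene; blue points are the 43 tested members (filled where called in WT), the red point is RSAD2, called in both, grey points are all genes tested within 3 of 0 on either axis, and the dashed line marks equal responses. Members' WT changes run up to 1.92 for MX2 and down to -1.41 for PARP9, while insR changes lie between -0.98 and 0.74.

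The third comparison asked how insR cells differ from WT cells without drug. Over all genes 30.1% were called, 14.5% higher and 15.6% lower in insR, and of the 43 members 17 were called, 11 higher and 6 lower, with a median log2 fold change of 0.13. What the insertion does and what else differs between the cell lines cannot be told apart in this design. RSAD2 was higher in insR cells, at 32.3, 29 and 34.1 CPM in insR DMSO, against 7.2, 8.44 and 6.61 CPM in WT DMSO (log2 fold change 2.09, SE 0.14, edgeR adjusted p = 1.65e-11). Each untreated insR library also lay above each drug-treated WT library, where RSAD2 reached at most 27.1 CPM, a difference that was not tested. CMPK2 was higher as well, at 95.1, 94 and 97.9 CPM in insR DMSO, against 52.1, 48.1 and 56.6 CPM in WT DMSO (log2 fold change 0.87, SE 0.11, edgeR adjusted p = 6.61e-07).

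Other effectors were also higher in untreated insR cells. IFI6, a small membrane protein that limits flavivirus replication, was at 21.8, 25.6 and 20.4 CPM in insR DMSO, against 11.6, 9.51 and 6.79 CPM in WT DMSO (log2 fold change 1.28, SE 0.18, edgeR adjusted p = 5.18e-06). ISG20 was at 49.7, 40.7 and 49.9 CPM in insR DMSO, against 26.5, 26 and 23.9 CPM in WT DMSO (log2 fold change 0.88, SE 0.12, edgeR adjusted p = 2.02e-06). These groups did not overlap. Smaller differences were called for HERC5, the ligase that attaches ISG15 (0.72), DDX60 (0.66), IFI35 (0.74), BST2 (0.44), SP110 (0.29), the ligase TRIM25 (0.28) and IFITM3 (0.29), a membrane protein that blocks virus entry.

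IFI16 was the member with the lowest p, and it was lower in insR cells, at 133, 135 and 134 CPM in insR DMSO, against 388, 407 and 353 CPM in WT DMSO (log2 fold change -1.52, SE 0.08, edgeR adjusted p = 4.98e-13). The 20 tested genes around IFI16 on chromosome 1 had a median log2 fold change of 0.15 in the same comparison, and 8 of them were called. USP18 was at 1.63, 0.66 and 2.11 CPM in insR DMSO, against 5.44, 5.89 and 5.72 CPM in WT DMSO (log2 fold change -1.93, SE 0.36, edgeR adjusted p = 0.000163), from 32 counts in insR DMSO and 107 in WT DMSO. ISG15, the substrate of USP18, was at 33.9, 31.7 and 31.5 CPM in insR DMSO, against 44.1, 45.8 and 57.5 CPM in WT DMSO (log2 fold change -0.60, SE 0.12, edgeR adjusted p = 0.000484). MX2 (-1.58), IFI27 (-0.47) and DTX3L (-0.31) were the other members called lower. The 10 monocyte and macrophage genes summed to 128 to 135 CPM in insR DMSO, against 105 to 129 CPM in WT DMSO, with VCAN (1.61) and CD68 (0.61) called higher in insR. Of other markers, IL3RA (3.03), CD33, CD34, KIT and COL1A1 were called higher and KRT18 lower, and 0 of 4 tested T, B and NK cell genes were called. The share of uniquely mapped reads in no annotated feature was 13.8 to 17.1% in insR DMSO, against 16.3 to 16.7% in WT DMSO. The part of these shifts in the members' differences was not tested.

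Of these 17 calls, 6 were lost in some alternative. Without insR DMSO replicate 1, edgeR adjusted p-values were 0.0687 for IFITM3, 0.0698 for MX2, 0.135 for SP110 and 0.064 for IFI35. DDX60 was lost without insR DMSO replicate 2 (0.0667), SP110 also without WT DMSO replicates 1 and 3 (0.069 and 0.0618), and IFI27 without WT DMSO replicate 2 (0.108) and insR DMSO replicate 3 (0.0905). With libraries thinned to equal depth the adjusted p was 0.104 for MX2, 0.0705 for SP110, 0.0558 for IFI27 and 0.0763 for IFI35. The lowest adjusted p over the alternatives was 0.00136 for IFITM3, 0.00687 for MX2, 0.0234 for SP110, 0.00315 for IFI35, 0.00644 for DDX60 and 0.0128 for IFI27.

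Under GSK-LSD1 the genotypes were compared as well. Over all genes 54.5% were called, 27% higher and 27.5% lower in insR, and of the 43 members 23 were called, 13 higher and 10 lower, with a median of -0.03. The 10 monocyte and macrophage genes summed to 153 to 163 CPM in insR GSK-LSD1, against 281 to 308 CPM in WT GSK-LSD1. All 4 of them that were tested were called, VCAN (-2.43), ITGAM (-1.17) and LYZ (-0.41) lower and CD68 (0.62) higher in insR. The share of uniquely mapped reads that fell in no annotated feature was 13.7 to 15.1% in insR GSK-LSD1, against 18.4 to 19.5% in WT GSK-LSD1, and that of mitochondrial genes among gene reads was 2.70 to 3.58% in insR GSK-LSD1, against 3.97 to 4.54% in WT GSK-LSD1. The part of these shifts in the members' differences was not tested.

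MX2 was at 0.161, 0.83 and 0.155 CPM in insR GSK-LSD1, against 9.45, 7.3 and 7.84 CPM in WT GSK-LSD1 (log2 fold change -4.49, SE 0.46, edgeR adjusted p = 1.22e-08). The lowest and the highest of these insR libraries rested on 1 and 4 counts. GBP2 (-1.83), IFI16 (-1.69), DDX58 (-1.08), ISG15 (-1.04) and OAS1 (-2.45) were lower in insR cells too, the last from 11 counts in insR GSK-LSD1 and 67 in WT GSK-LSD1.

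Higher in insR cells under the drug were PARP9 (1.37), ISG20 (1.33), RSAD2 (1.02), IFI6 (0.97), PARP12 (0.72), CMPK2 (0.68), DTX3L (0.51) and EIF2AK2 (0.43). IFITM1 was at 7.9, 6.84 and 8.98 CPM in insR GSK-LSD1, against 1.51, 5.38 and 3.16 CPM in WT GSK-LSD1 (log2 fold change 1.26, SE 0.34, edgeR adjusted p = 0.00331). IFITM1, IFITM2 and IFITM3 are neighbours of related sequence on chromosome 11, and IFITM1 and IFITM2 overlap in the annotation, so their separate values are uncertain. Calls lost without 1 library were STAT2 (0.0557 without insR GSK-LSD1 replicate 2, range 0.00303 to 0.0557), IFITM2 (0.0679 without WT GSK-LSD1 replicate 2, range 0.00101 to 0.0679) and PARP12 (0.13 without insR GSK-LSD1 replicate 1, range 0.0027 to 0.13), all as edgeR adjusted p-values. TRIM25 was lost without WT GSK-LSD1 replicate 3 (0.0626) and insR GSK-LSD1 replicate 3 (0.0557), with a range of 0.0109 to 0.0626. HERC5 was lost in 7 of 16 alternatives, with 0.248 without WT GSK-LSD1 replicate 1, 0.173 without insR GSK-LSD1 replicate 1, 0.0516 without insR GSK-LSD1 replicate 3 and a lowest value of 0.00956. These genotype comparisons share libraries with the drug comparisons, so values are set side by side and not counted as separate evidence.

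**Figure D3:**
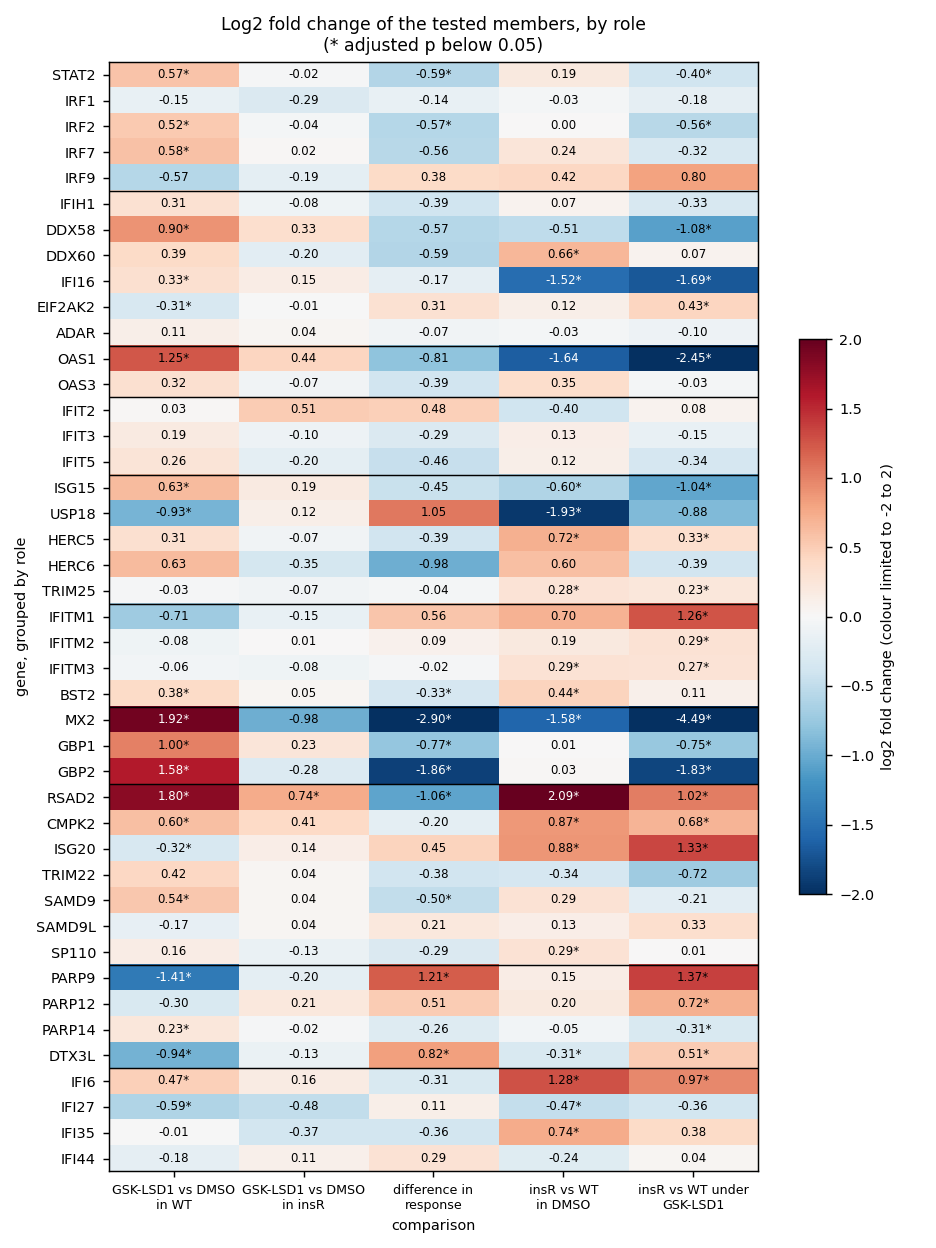
Log2 fold changes of the 43 tested members (rows, grouped by role) in the 5 comparisons (columns), on a colour scale centred on 0, with called values starred. The WT response column holds 22 starred members and the insR response column 1, RSAD2.

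Genes that lie next to each other among the members were compared by their values. On chromosome 2, RSAD2 and CMPK2 were both higher in insR DMSO than in WT DMSO and both rose under the drug in WT cells, by 1.80 and 0.60 on the log2 scale. The 20 tested genes around RSAD2 had a median log2 fold change of -0.10 in insR against WT in DMSO and of -0.08 in the WT response. On chromosome 3, PARP9 and DTX3L both fell in WT cells, while the 20 tested genes around PARP9 had a median of 0.09. RSAD2 overlaps CMPK2, and PARP9 overlaps DTX3L, on opposite strands in the annotation. How the counting treated strand is not given in the sources used here, and reads from the shared stretches cannot be told apart. On chromosome 1, GBP1 and GBP2 rose together in WT cells, and the 20 tested genes around GBP2, GBP1 among them, had a median of 0.19. On chromosome 10 none of IFIT2, IFIT3 and IFIT5 was called in any of the 5 comparisons by edgeR, DESeq2, limma-voom or limma-trend, and 0 had an unadjusted p below 0.05 with edgeR.

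**Figure D4:**
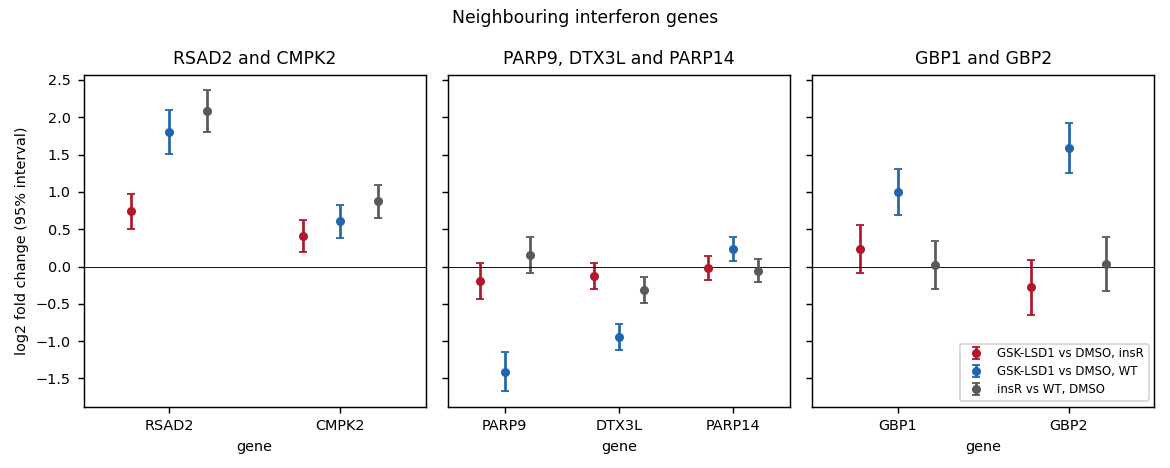
Log2 fold changes with 95% confidence intervals of neighbouring members in the insR response, the WT response and insR against WT in DMSO. RSAD2 and CMPK2 lie above 0 in all of these, PARP9 and DTX3L lie below 0 in the WT response, and GBP1 and GBP2 lie above 0 in the WT response and near 0 in DMSO.

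The response element letters were set beside the calls. Of 22 tested members with the letters, 7 rose and 5 fell in the WT response, and of 13 tested members whose windows had none, 5 rose and 0 fell, where 22.7% of all genes were called higher and 22.5% lower. Members without the letters can still hold a closely related form. GAAACGAAA or its reverse complement is in windows of OAS1, DDX58, TRIM25, CMPK2 and IFI16, so these counts do not set members with sites against members without sites. In insR against WT in DMSO, 7 members with the letters were higher and 3 lower, and without them 4 were higher and 1 lower, where 14.5% of all genes were called higher and 15.6% lower. PARP9, RSAD2, GBP1 and ISG20 held TTTCAGTTTC or its reverse complement in the windows printed above, though not in the second windows of PARP9 and RSAD2, and PARP9 and ISG20 were called lower while RSAD2 and GBP1 were called higher in the WT response. In insR against WT in DMSO, RSAD2 and ISG20 were called higher, and PARP9 (0.15) and GBP1 (0.01) were not called.

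Genes before and after the members in the pathway also went both ways in WT cells. Among 8 tested receptor and kinase genes, JAK1 (0.49) and TYK2 (0.41) rose and JAK2 (-0.81) and the receptor chain IL10RB (-0.24) fell. Among 14 tested genes of 22 on the sensor pathway, 3 rose and 4 fell. The DNA sensor AIM2 rose by 1.83 and the adaptor STING1 by 0.53, while TICAM1, the adaptor of TLR3, fell by 1.43 on the log2 scale. Negative regulators of the response had 2 higher and 6 lower of 15, with PIAS1 (0.59) higher and SAMHD1 (-1.07), the nuclease subunit RNASEH2B (-0.69) and the phosphatase PTPN2 (-0.44) lower.

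Other interferon-stimulated genes had 10 higher and 8 lower of 39 tested, with TNFSF10 (1.50), TRIM38 (1.35) and GBP4 (0.81) higher and EPSTI1 (-1.41) lower. Antigen presentation genes had 3 higher and 3 lower of 10, and the peptide transporter genes TAP1 (-1.02) and TAP2 (-0.94) and the proteasome activator PSME2 (-0.75) fell while the peptide-loading gene TAPBP rose (0.49). In the RNA-induced silencing complex and small RNA processing, 3 of 12 rose, AGO4 (1.18), TNRC6B (0.66) and TNRC6C (0.67), and PRKRA fell (-0.66). Of 15 tested genes that silence repeat elements, 5 rose and 3 fell, with DNMT3A (0.63), ATF7IP (0.62) and SETDB1 (0.79) higher and MORC2 (-0.60) lower. All of these log2 fold changes passed edgeR's adjusted p of 0.05, and the counts are read beside the 45.2% of all genes called in the WT response. In the insR response none of these lists had a call beyond TNFSF10 by edgeR, DESeq2, limma-voom or limma-trend. At an unadjusted p below 0.05, which 7.74% of all genes reached there, edgeR gave 1 of 8 receptor or kinase genes, 2 of 14 sensor genes, 1 of 15 negative regulators, 5 of 39 interferon-stimulated genes, 2 of 10 antigen presentation genes, 0 of 12 silencing complex genes and 1 of 15 repeat silencing genes.

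In insR against WT in DMSO, where 14.5% of all genes were called higher and 15.6% lower, other interferon-stimulated genes had 9 higher and 6 lower of 39, among them GBP4 (0.90) higher and TRIM38 (-2.20), XAF1 (-1.49) and TNFSF10 (-1.15) lower. Receptor and kinase genes had 2 higher and 0 lower of 8, IFNAR2 (0.32) and JAK1 (0.26), and the feedback inhibitors SOCS3 (1.72) and SOCS1 (1.24) were higher with RNASEH2B lower (-1.20). On the sensor pathway NLRC5 (0.46) and TRAF3 (0.57) were higher. None of the 12 silencing complex genes was called in this comparison by edgeR or DESeq2, 1 was called by limma-voom, and 1 had an unadjusted p below 0.05 with edgeR. Among the repeat silencing genes TRIM28 was higher (0.51) and MPHOSPH8 (-1.04) and DNMT3A (-0.23) were lower.

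**Figure D5:**
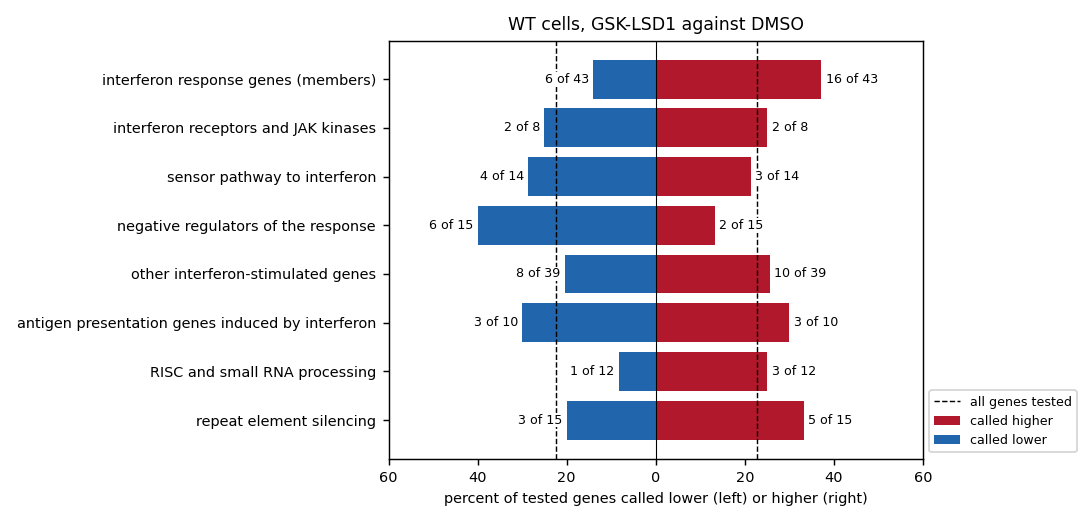
Share of tested genes called higher (right) and lower (left), in percent, for the members and the other lists in the WT response, with the number of genes beside each bar and dashed lines at the share over all genes tested. Of 43 members 16 are called higher and 6 lower, and of 15 negative regulators 2 are higher and 6 lower.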

How the data were processed

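RNA was measured in 12 libraries, 3 in each of 4 groups taken from the sample titles. Per the labels' protocols, poly(A) RNA went into a Lexogen QuantSeq 3' FWD preparation, whose reads lie near transcript ends. The submitters' processing notes name the build hg19 and, with no role given, bcl2fastq 2.2, STAR 2.6.0c, HTSeq 0.9.1 and DESeq2. Neither the annotation release nor the strand setting is given in the sources used here. Per the file contents, the deposited counts are unnormalized whole numbers of reads for each gene. A deposited table of normalized signal was read only for an alternative, limma-trend on log2 of the signal plus 1.

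The members and all gene lists were chosen with earlier results of these data known. All 12 libraries were fitted together in edgeR 4.0.16 (R 4.3.3, robust quasi-likelihood test, TMM scaling, genes kept by filterByExpr, no replicate block), and p-values were Benjamini-Hochberg adjusted over 12864 genes. Reads in no gene, ambiguous reads (0.676% to 0.748% of entries of the counting step) and reads placed at several sites (57.9% to 62.6% of entries) stayed out. Standard errors were taken from the F statistic, and intervals cover 95%. Members called with a log2 change of at least 1 and 5 CPM in the higher group were given with every library; from other lists, up to 4 called genes of lowest p were named. Floors cover counting error only.

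The alternatives changed the scaling (DESeq2 size factors, upper quartile), the count filter or the test (DESeq2 1.42.0, limma-voom and limma-trend of limma 3.58.1), added a replicate block, asked for an adjusted p of 0.01, fitted only the groups compared, thinned libraries to 4837096 reads, or left out each library in turn. The fit was also run on simulated data with far fewer changed genes than the WT response called. No result above rests on that run. Promoter windows are from RefSeq on GRCh38.p14. Gene order, strand and overlaps of genes are from positions in GENCODE on a later build than hg19, the build named for the counts. Gene symbols were found for 52181 of 63677 identifiers. Some items of the pathway are not reported here.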

Additional observations from a re-analysis of the deposited data

Results flagged for a closer look

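The response to GSK-LSD1 differed between insR and WT cells, by edgeR's test of the difference itself (insR change minus WT change, adjusted below 0.05), for 10 of the 43 tested members. The difference was -2.90 on the log2 scale for MX2, -1.86 for GBP2, -1.06 for RSAD2, -0.77 for GBP1, -0.59 for STAT2, -0.57 for IRF2, -0.50 for SAMD9 and -0.33 for BST2. It was 1.21 for PARP9 and 0.82 for DTX3L. The difference was called for 23.3% of the tested members and for 25.1% of all genes tested, so the members' share was no higher. The calls of STAT2, SAMD9, BST2 and IRF2 were lost in 1, 5, 12 and 13 of 21 alternatives.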

How the results depend on the processing

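Of 73 calls of members over the 5 comparisons, 51 were kept in all alternatives that used the 0.05 threshold, 22 were lost in at least 1 and 0 reversed. Genes called in the insR response numbered 65 as reported, 118 with no filter beyond 1 count, 39 with limma-trend, 38 at equal depth and 25 at an adjusted p below 0.01, and 28 to 45 with 1 library left out, as low as 28 without insR GSK-LSD1 replicate 1 or 2 and 29 without insR DMSO replicate 1. Members called in the insR response were 1 with each library left out, and 2 with no filter and with only the groups compared. The difference in response was called for 1896 genes and 5 members at an adjusted p below 0.01. With 1 library left out, members called numbered 18 to 21 in the WT response, 7 to 11 in the difference, 14 to 17 in insR against WT in DMSO and 22 to 26 under GSK-LSD1, and genes called 4975 to 5619, 2684 to 3199, 3210 to 3493 and 6331 to 6712. The labels do not state whether replicate numbers pair the libraries. Deviations from the group means had correlations of -0.169 to 0.198 between libraries of the same number. Between libraries of different numbers they were -0.313 to 0.2885. These correlations over all genes cannot exclude shared handling of libraries with the same number. With a replicate block, members called numbered 19 in the WT response, 1 in the insR response, 11 in the difference, 18 in insR against WT in DMSO and 24 under GSK-LSD1. Members under a few CPM, such as MX2, OAS1 and USP18, are limited by depth. With only the 250 bases before the start searched, 23 members held the response element letters and 11 the gamma-activated site letters.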
